A study of Homo sapiens with 9 samples.

Results

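The transcripts of SMARCA4 and SMARCA2 were followed one by one in H358 cells, an established line of human non-small cell lung cancer. Every transcript that GENCODE release 29 assigns to either gene was taken, which gave 54 of SMARCA4 (chr19:10960825-11079426) and 66 of SMARCA2 (chr9:1980290-2193624), or 120 of the 203835 transcripts listed for each library. RNA-seq libraries came from 3 groups of 3: H358 in which CRISPR had knocked out SMARCA4 (BRG1 KO), H358 in which it had knocked out SMARCA2 (BRM KO), and parental H358. All were grown in RPMI with 10% serum, and the libraries were made from total RNA. The labels do not say whether a knockout is 1 clone or a pool, where the guides cut, or whether replicates were separate cultures, so p-values measure the spread between these libraries, which may be technical. Each value below is either an estimated read count, which the quantifier assigns to a transcript from reads that may match several, or TPM, which divides by transcript length and scales each library to the same total.

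SMARCA4 encodes BRG1 and SMARCA2 encodes BRM, the alternative ATPases that drive SWI/SNF chromatin remodelling complexes. Each complex holds a single ATPase, and loss of one leaves the other as the remaining motor. Both proteins carry a helicase-type ATPase core and, near the carboxy terminus, a bromodomain that binds acetylated lysine. A transcript with a premature stop codon can be destroyed by nonsense-mediated decay, and CRISPR cutting often leaves such a stop. A transcript that starts downstream of the cut, or skips the cut exon, can keep an open reading frame. Internal starts in the SMARCA2 gene are known to give short RNAs that hold the bromodomain end but not the ATPase core.

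The 120 transcripts were sorted by annotated structure. A transcript was called full-length when its coding sequence reached 80% of the longest coding sequence of the gene, short when it began beyond 66.7% of the gene's span, and other in all other cases. SMARCA4 had 19 full-length, 4 short and 31 other transcripts. SMARCA2 had 6 full-length, 29 short and 31 other transcripts. Full-length SMARCA4 transcripts differ in where they begin and end and, inside the coding sequence, at a few places. A 99-base exon (chr19:11033767-11033865, exon 27 of 35 in SMARCA4-201) is held by 5 of the 19. A 96-base exon (chr19:11039458-11039553, exon 29 of 35 in SMARCA4-227) is held by a further set of 5 that overlaps the first. The next exon ends at 11041560 and begins at either 11041298 or 11041307, so that 9 bases are kept by 7 transcripts and skipped by 12. Another exon begins at either 11058255 or 11058258 and ends at 11058363, so that 3 bases are kept by 16 transcripts and skipped by 3. Exons of 97, 43, 40 and 12 bases were held by SMARCA4-202 alone, which was listed at 0 reads in all 9 libraries. Full-length SMARCA2 transcripts differ, among other places, by a 54-base exon (chr9:2170419-2170472, exon 29 of 34 in SMARCA2-203), held by 3 of the 6. All coordinates are on hg38 and both genes lie on the plus strand.

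The sequences of these choices follow, because they are what tells the full-length isoforms apart. They were read from the GENCODE 29 transcripts, 5′ to 3′, with 20 bases of the joined neighbouring exon on each side in lower case and the alternative bases in capitals.
SMARCA4 99-base exon: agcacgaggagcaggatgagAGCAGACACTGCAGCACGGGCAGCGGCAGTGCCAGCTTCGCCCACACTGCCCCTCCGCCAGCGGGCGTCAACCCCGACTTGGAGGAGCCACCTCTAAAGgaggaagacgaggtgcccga
SMARCA4 96-base exon: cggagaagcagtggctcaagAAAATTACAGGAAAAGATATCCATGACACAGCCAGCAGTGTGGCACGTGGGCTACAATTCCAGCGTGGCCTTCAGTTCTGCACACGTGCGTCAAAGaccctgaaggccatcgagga
SMARCA4 9 bases kept: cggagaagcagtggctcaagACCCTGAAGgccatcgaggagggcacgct
SMARCA4 9 bases skipped: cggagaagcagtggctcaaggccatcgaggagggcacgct
SMARCA4 3 bases kept: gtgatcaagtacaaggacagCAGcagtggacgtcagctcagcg
SMARCA4 3 bases skipped: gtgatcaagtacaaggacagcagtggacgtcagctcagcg
SMARCA2 54-base exon: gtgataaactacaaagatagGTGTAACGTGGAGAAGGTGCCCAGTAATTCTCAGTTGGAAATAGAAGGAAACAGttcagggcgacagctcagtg
The 3-base choice of SMARCA4 and the 54-base exon of SMARCA2 lie at matching places in the paired genes. The 20 bases before the choice are identical at 16 positions, and the 20 bases after it at 13.

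How well reads can tell these transcripts apart was read from the sequences. No 31-base word was shared between SMARCA4 and SMARCA2, so reads of that length or longer that match exactly do not move between the paired genes. Within a gene they do. Of the SMARCA4 transcripts, 28 of 54 hold no 31-base word of their own, and of the SMARCA2 transcripts, 9 of 66. The 4 most abundant SMARCA4 transcripts, SMARCA4-253, SMARCA4-241, SMARCA4-225 and SMARCA4-245, are among those 28. Values of single full-length transcripts therefore rest on how the quantifier divided shared reads. Sums of reads over a gene or a structural class do not depend on that division within them. Sums of TPM do, where the transcripts differ in length. In other genes, 5.84% of the 31-base words of SMARCA4 and 2.40% of those of SMARCA2 recur. The 5 annotated genes that overlap SMARCA4 or SMARCA2 had at most 3 reads in any library.

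The libraries held 31964385 to 40673480 estimated reads. Epithelial markers (EPCAM, KRT8, KRT18, KRT19, CDH1) summed to 428 to 897 TPM in BRG1 KO, 4502 to 5130 TPM in BRM KO and 5050 to 5239 TPM in parental cells. NKX2-1, a lung lineage factor, stood at 0 to 0.0250 TPM in BRG1 KO, 146 to 225 TPM in BRM KO and 56.1 to 88.4 TPM in parental cells. Fibroblast markers (PDGFRB, COL1A1, COL3A1, DCN) summed to 112 to 344, 40.1 to 53.0 and 12.8 to 23.9 TPM in the same order of groups. In BRG1 KO the mean of each of these genes was above its parental mean. In BRM KO the higher sum lay in COL1A1, while mean PDGFRB and COL3A1 were below parental and DCN was low in all groups. Endothelial markers (PECAM1, CDH5) stayed at or below 0.707 TPM in all libraries. The part of these differences in the results below was not tested.

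Summed over transcripts, each target gene was lower in its own knockout, and neither was at 0. In bulk RNA, fewer cells with a transcript and less of it per cell cannot be told apart. SMARCA4 summed to 10.3, 8.54 and 9.23 TPM in BRG1 KO, against 73.2, 66.4 and 62.5 TPM in parental cells, and the groups were far apart. It stood at 70.8, 74.8 and 71.7 TPM in BRM KO, which overlaps the parental range. In the edgeR quasi-likelihood test SMARCA4 fell by 3.29 ± 0.14 in BRG1 KO on the log2 scale of read counts (SE, n = 3 per group; adjusted p = 4.2e-07), to 10.2% of the parental level. With counts corrected for transcript length the change was -2.67 and passed as well. Its difference between BRM KO and parental cells was 0.13 ± 0.13 and did not pass (edgeR adjusted p = 0.46). Of 18221 genes tested, 21.8% were called lower in BRG1 KO than in parental cells.

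SMARCA2 summed to 5.03, 5.93 and 5.48 TPM in BRM KO, against 16.2, 31.3 and 27.0 TPM in parental cells. In BRG1 KO it stood at 20.4, 12.02 and 29.1 TPM, a spread that takes in most of the parental range. SMARCA2 fell by 2.36 ± 0.23 in BRM KO (SE, n = 3 per group; edgeR adjusted p = 1.2e-04), to 19.5% of the parental level, where 16.4% of all genes tested were called lower and 20.9% higher. Its difference of -0.26 ± 0.22 between BRG1 KO and parental cells did not pass (edgeR adjusted p = 0.35). Library 3 of BRG1 KO decided that call: without it the difference was -0.62 and passed (edgeR adjusted p = 0.012). Set directly against BRM KO, the log2 difference of BRG1 KO was -3.42 ± 0.14 for SMARCA4 and 2.10 ± 0.23 for SMARCA2 (SE over groups of 3; edgeR adjusted p = 1.7e-07 for SMARCA4 and 3.9e-05 for SMARCA2), where 45.3% of all genes tested were called in either direction.

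The balance of the paired ATPase RNAs, read per length, lay apart in all groups. The ratio of SMARCA4 to SMARCA2 TPM was 0.504, 0.711 and 0.317 in BRG1 KO, so SMARCA2 RNA was the more abundant in each of these libraries. It was 14.1, 12.6 and 13.1 in BRM KO. In parental cells it was 4.53, 2.12 and 2.32, between the knockouts and overlapping neither.

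**Figure D1:**
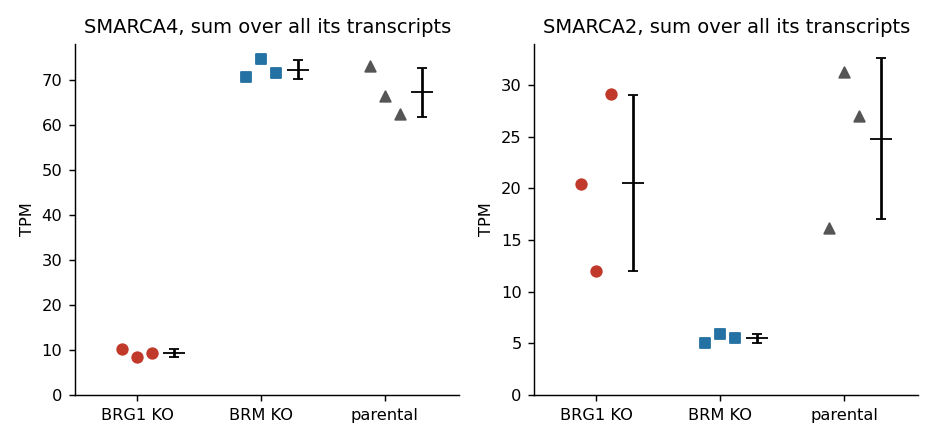
TPM of SMARCA4 and SMARCA2 summed over all transcripts of the gene. Each symbol is 1 library, and the bar beside each group is the mean with its SD (n = 3): SMARCA4 lies between 8.54 and 10.3 TPM in BRG1 KO and above 62 TPM in all other libraries, and SMARCA2 lies between 5.03 and 5.93 TPM in BRM KO.

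Most annotated transcripts of these genes carried few or no reads. SMARCA4 had 13 of 54 transcripts listed at 0 reads in all 9 libraries, and SMARCA2 had 39 of 66, of which 23 were short. Reads were assigned in all 9 libraries to 4 SMARCA4 transcripts (SMARCA4-251, SMARCA4-244, SMARCA4-210 and SMARCA4-216) and 2 SMARCA2 transcripts (SMARCA2-216 and SMARCA2-266). A mean of at least 0.5 TPM in some group was reached by 24 SMARCA4 and 11 SMARCA2 transcripts. The low-count filter kept 23 SMARCA4 transcripts (11 full-length, 2 short, 10 other) and 13 SMARCA2 transcripts (4 full-length, 3 short, 6 other) for testing.

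The 4 most abundant SMARCA4 transcripts were full-length, coding and of 34 exons each, and they differ in the 9-base and 3-base choices shown above and in where they begin and end. SMARCA4-253, which skips the 9 bases and keeps the 3, had 0, 0.569 and 4.10 TPM in BRG1 KO, 19.8, 14.2 and 21.4 TPM in BRM KO, and 17.5, 21.4 and 21.0 TPM in parental cells. BRG1 KO lay below every other library, but its 3 libraries differed widely, and the change of -3.67 on the log2 scale did not pass (edgeR adjusted p = 0.12).

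SMARCA4-241 skips both the 9 bases and the 3 bases. It had 0 reads in each BRG1 KO library, 1969, 2142 and 1959 reads in BRM KO, and 2453, 2187 and 1564 reads in parental cells. That is 13.8, 16.9 and 12.7 TPM in BRM KO and 19.7, 15.8 and 10.2 TPM in parental cells. With 3 reads over the group as the floor, SMARCA4-241 was at least 2005-fold lower in BRG1 KO than in parental cells (edgeR adjusted p = 3.0e-04), a bound for counting error that does not cover how shared reads were divided.

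SMARCA4-225 keeps both the 9 and the 3 bases. It had 1.02, 0 and 0 TPM in BRG1 KO, 12.9, 10.7 and 8.79 TPM in BRM KO, and 10.2, 7.47 and 7.91 TPM in parental cells. SMARCA4-245 matches SMARCA4-253 in these choices and had 1.41, 0.360 and 0 TPM in BRG1 KO, 4.18, 11.5 and 8.88 TPM in BRM KO, and 6.87, 3.67 and 6.50 TPM in parental cells. For both, all BRG1 KO libraries lay below all others, while BRM KO and parental libraries overlapped.

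The next coding transcripts by level begin or end inside the gene. SMARCA4-243 begins at 10996274, holds 65.1% of the longest coding sequence and had 0 TPM in all BRG1 KO libraries, 2.58, 2.72 and 1.96 TPM in BRM KO, and 0, 5.13 and 2.93 TPM in parental cells. SMARCA4-231 begins at 10991175, holds 70.9% of the longest coding sequence and had 0 TPM in all BRG1 KO libraries, 2.21, 1.04 and 1.84 TPM in BRM KO, and 1.63, 1.70 and 0.997 TPM in parental cells. SMARCA4-236, a 740-base fragment of the 5′ end with 27 31-base words of its own, had 0 TPM in all BRG1 KO libraries, 1.73, 0.956 and 1.83 TPM in BRM KO, and 2.68, 1.13 and 1.08 TPM in parental cells.

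Across the 23 SMARCA4 transcripts tested, 3 fell in BRG1 KO against parental cells (SMARCA4-241, SMARCA4-231 and SMARCA4-236) and none rose, where 6.68% of all 62150 transcripts tested were called lower and 5.76% higher. A further 6 had an unadjusted p under 0.05, SMARCA4-229 alone among them higher in BRG1 KO, and the fitted change was negative for 22 of the 23. SMARCA4-231 was at least 130-fold lower (edgeR adjusted p = 0.0013) and SMARCA4-236 at least 18.8-fold lower (edgeR adjusted p = 0.0101). These bounds too are for counting error and do not cover how shared reads were divided. SMARCA4-231, like SMARCA4-241, holds no sequence word of its own, so its reads rest on that division. Without library 1 of parental cells, or without library 1 or 3 of BRG1 KO, 5 transcripts were called lower. The same 3 transcripts were called lower in BRG1 KO than in BRM KO, where 7.49% of transcripts were, and 5 without library 1 or 3 of BRG1 KO. None of the 23 was called in either direction between BRM KO and parental cells by edgeR, where 1 had an unadjusted p under 0.05 and 6.59% of all transcripts tested were called (2.90% higher and 3.69% lower). DESeq2 called 1 of them higher in BRM KO.

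**Figure D2:**
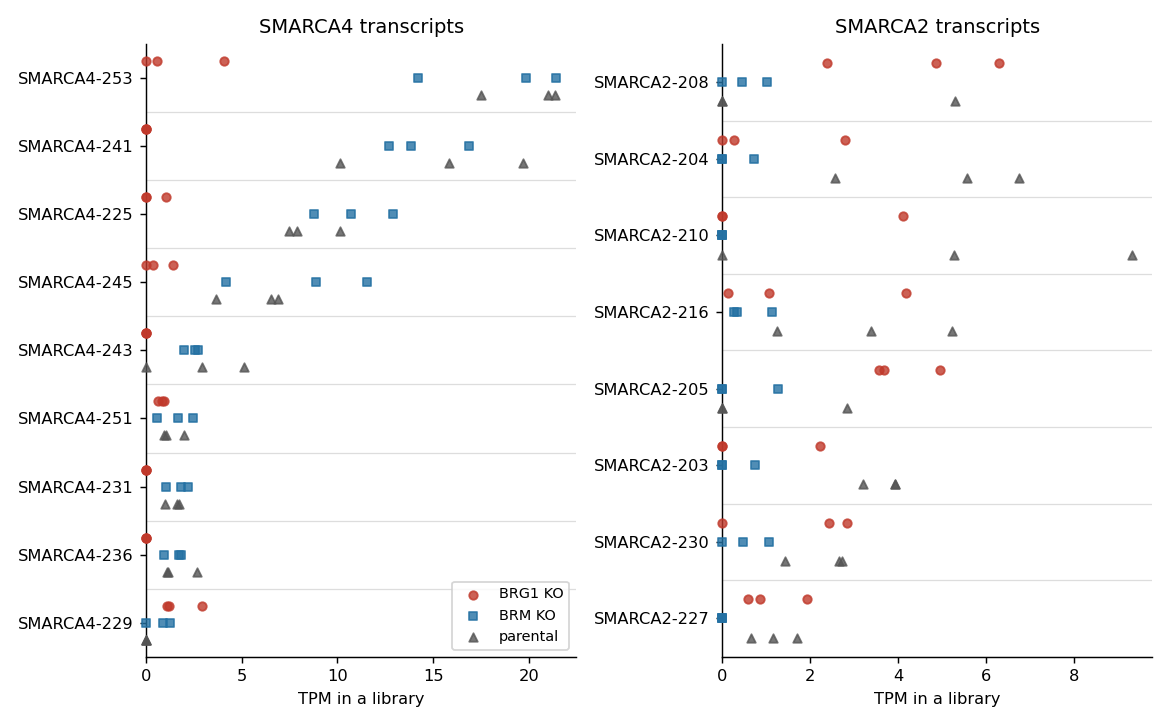
TPM in single libraries for the 8 most abundant transcripts of each gene and SMARCA4-229. Each symbol is 1 library, with BRG1 KO above BRM KO above parental cells within a row: SMARCA4-241 stands at 0 in all BRG1 KO libraries and from 10.2 to 19.7 TPM elsewhere, and SMARCA2-227 stands at 0 in all BRM KO libraries.

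What remained of SMARCA4 in BRG1 KO was a different mix. Reads were assigned in all 3 BRG1 KO libraries to 5 of 54 transcripts (SMARCA4-251, SMARCA4-244, SMARCA4-229, SMARCA4-210 and SMARCA4-216), which together made 36.7% to 58.3% of the gene's TPM there. The same count was 19 in BRM KO and 17 in parental cells. SMARCA4 held 842, 804 and 852 reads in BRG1 KO and at least 7951 in every other library, and these counts are not corrected for that. TPM also gives short transcripts more weight than reads do, and SMARCA4-210 had only 5.30, 3.36 and 4.90 reads in BRG1 KO. Of the 5 transcripts, SMARCA4-251, SMARCA4-229 and SMARCA4-210 are annotated as retained introns, SMARCA4-244 as a target of nonsense-mediated decay, and SMARCA4-216 as coding for 69.3% of the longest coding sequence. These transcripts, apart from SMARCA4-251 and SMARCA4-229, were singled out after their values were seen.

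SMARCA4-251 (chr19:11040634-11062028) is a short transcript of 6 exons with no coding sequence. It had 0.964, 0.836 and 0.642 TPM in BRG1 KO, 0.566, 2.45 and 1.68 TPM in BRM KO, and 1.97, 0.920 and 1.04 TPM in parental cells. SMARCA4-244 had 58.7, 46.8 and 53.4 reads in BRG1 KO, 91.8, 63.8 and 114 reads in BRM KO, and 52.6, 79.0 and 58.0 reads in parental cells, so BRG1 KO and parental libraries overlapped while the gene as a whole stood at 10.2%. SMARCA4-244 has 223 31-base words of its own of 2772, and its values rest less on shared reads than those of the full-length transcripts.

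SMARCA4-229 (chr19:11040644-11062247) is also short, with no coding sequence and no 31-base word of its own. It had 49.3, 163 and 48.2 reads in BRG1 KO, 54.6, 0 and 40.4 reads in BRM KO, and 0 in all parental libraries. It was the most abundant SMARCA4 transcript of BRG1 KO by mean TPM, at 1.73 ± 1.03 (SD, n = 3), and its change against parental cells did not pass in the transcript test (edgeR adjusted p = 0.0502). Under 5 of 9 other settings 1 SMARCA4 transcript was called higher in BRG1 KO than in parental cells.

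Whether transcripts of a gene moved unequally was tested in edgeR as each transcript's log2 difference against that of its gene as a whole. In BRG1 KO against parental cells edgeR called 2 of the 23 SMARCA4 transcripts, the share of SMARCA4-241 lower (adjusted p = 3.8e-05) and that of SMARCA4-229 higher (adjusted p = 0.0199), where 1.07% of all 56118 transcripts tested were called lower and 0.925% higher (2.00% in all). The call of SMARCA4-229 was lost without any 1 of the parental libraries, without library 2 of BRG1 KO and without library 3 of BRM KO (edgeR adjusted p = 0.059 to 0.19). SMARCA4-241 was also called lower in BRG1 KO than in BRM KO (edgeR adjusted p = 5.4e-05), where 0.941% of all transcripts were called lower and 0.932% higher (1.87% in all). In BRM KO against parental cells none of the 23 was called by edgeR, 1 had an unadjusted p under 0.05, and 0.299% of all transcripts were called higher and 0.415% lower (0.715% in all). The matching limma test on the same reads called neither, with adjusted p = 0.15 and 0.11 against parental cells and 0.19 for SMARCA4-241 against BRM KO. It called the share of SMARCA4-253 lower instead, with adjusted p = 0.0184 against parental cells and 0.0325 against BRM KO, where 6.28% and 4.12% of all transcripts were called in either direction. SMARCA4-241 and SMARCA4-253 differ in the 3-base choice, and which of them is named as reduced in share turns on the tool.

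The structural classes were then compared. A class sum of reads does not depend on how reads were divided inside the class, while a sum of TPM does through transcript length. Both depend on how reads were divided between classes. Full-length transcripts made 27.7%, 15.9% and 51.0% of SMARCA4 TPM in BRG1 KO, 75.7%, 74.0% and 76.3% in BRM KO, and 78.8%, 79.9% and 83.7% in parental cells. Every BRG1 KO library lay below every other library. Their summed level averaged 2.97 ± 1.68 TPM in BRG1 KO, 54.5 ± 0.921 TPM in BRM KO and 54.3 ± 2.88 TPM in parental cells (SD, n = 3 each), a ratio of 0.0547 between BRG1 KO and parental cells. By estimated reads in place of TPM the mean full-length share was 52.5% in BRG1 KO, 87.0% in BRM KO and 90.7% in parental cells. The difference in share from parental cells was -49.3 percentage points (two-sided exact permutation test, p = 0.1, the smallest that 3 against 3 libraries allow).

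Short SMARCA4 transcripts did not share the gap seen in the full-length class. Their sum averaged 2.72 ± 1.03 TPM in BRG1 KO, 2.54 ± 0.620 TPM in BRM KO and 1.39 ± 0.710 TPM in parental cells (SD, n = 3 each), and the difference between BRG1 KO and parental cells did not exceed the spread (exact permutation p = 0.2). As a share they made 24.0%, 45.1% and 19.9% of SMARCA4 TPM in BRG1 KO, 2.57%, 3.89% and 4.01% in BRM KO, and 3.01%, 1.38% and 1.66% in parental cells. By estimated reads in place of TPM, which gives short transcripts less weight, the mean share was 14.9% in BRG1 KO, 1.01% in BRM KO and 0.576% in parental cells. In BRG1 KO all of that signal lay in transcripts that start before 75% of the gene's span, since with the class begun at 75% its mean share was 0% in BRG1 KO, 0.206% in BRM KO and 0.104% in parental cells.

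By annotated type, SMARCA4 transcripts with retained introns summed to 3.20, 4.52 and 2.58 TPM in BRG1 KO, 3.59, 5.86 and 4.79 TPM in BRM KO, and 3.83, 2.596 and 2.17 TPM in parental cells. All groups overlapped. Coding transcripts averaged 4.998 ± 1.41 TPM in BRG1 KO, 65.5 ± 0.811 TPM in BRM KO and 62.8 ± 4.38 TPM in parental cells (SD, n = 3 each). Transcripts annotated for nonsense-mediated decay, 7 in number, averaged 0.924 ± 0.293, 2.00 ± 0.446 and 1.61 ± 0.345 TPM in the same order of groups.

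**Figure D3:**
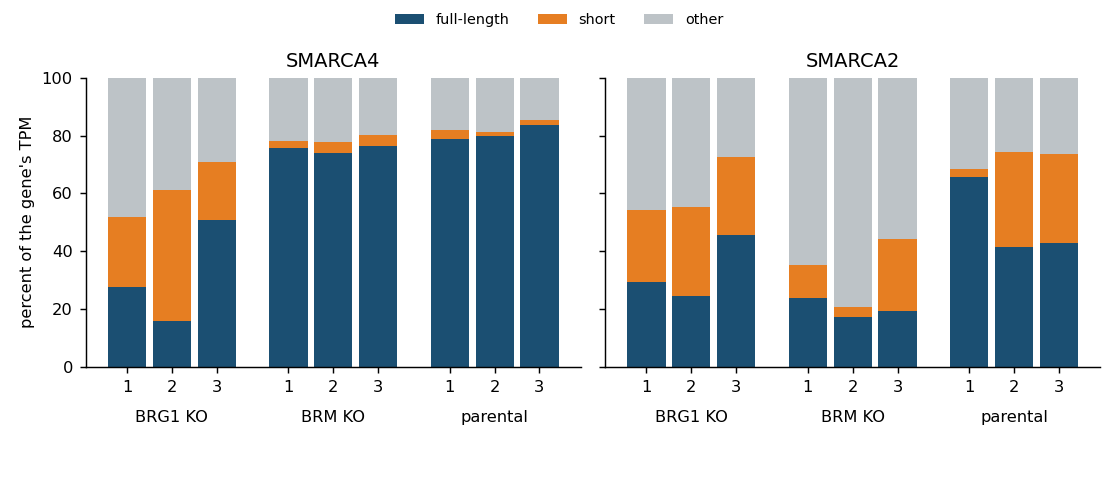
Share of each structural class in the TPM of SMARCA4 (left) and SMARCA2 (right), 1 bar per library, numbered by replicate. Full-length transcripts make 15.9% to 51.0% of SMARCA4 in BRG1 KO and at least 74.0% elsewhere, and 17.3% to 23.8% of SMARCA2 in BRM KO.

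The leading full-length SMARCA2 transcripts differ in their starts. In parental cells those with the highest level were SMARCA2-204 and SMARCA2-203, which begin at 2015186 and 2015288 on chromosome 9, while SMARCA2-208 begins at 2017412 and uses another first exon. SMARCA2-204 had 0.277, 0 and 2.80 TPM in BRG1 KO, 0, 0 and 0.733 TPM in BRM KO, and 6.74, 2.57 and 5.57 TPM in parental cells. SMARCA2-203, which holds the 54-base exon, had 0, 0 and 2.23 TPM in BRG1 KO, 0.739, 0 and 0 TPM in BRM KO, and 3.21, 3.94 and 3.92 TPM in parental cells. For SMARCA2-203 every knockout library of either kind lay below every parental library.

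SMARCA2-208 showed another pattern. It had 4.87, 2.39 and 6.30 TPM in BRG1 KO, 0.455, 1.02 and 0 TPM in BRM KO, and 0, 5.29 and 0 TPM in parental cells. Transcripts that begin at the upstream start (SMARCA2-203, SMARCA2-204 and SMARCA2-214, grouped after the values were seen) made 4.61%, 0% and 37.9% of full-length SMARCA2 TPM in BRG1 KO, 61.9%, 0% and 69.0% in BRM KO, and 93.8%, 50.2% and 83.0% in parental cells. All BRG1 KO libraries lay below all parental libraries in this share, with library 3 of BRG1 KO nearest to them. Neither SMARCA2-204 nor SMARCA2-208 passed the edgeR tests of level or share in this comparison. The limma share test called SMARCA2-204 lower and SMARCA2-208 higher in BRG1 KO than in parental cells (limma adjusted p = 0.0223 for SMARCA2-204 and 0.0106 for SMARCA2-208), the 2 calls it made among the 13 SMARCA2 transcripts, where it called 6.28% of all transcripts in either direction.

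SMARCA2-227 holds the 54-base exon but lacks the 106-base exon at chr9:2181571-2181676, and it is annotated as a target of nonsense-mediated decay although its coding sequence is 89.8% of the longest. It has 126 31-base words of its own of 5809. It had 138, 112 and 276 reads in BRG1 KO, 0 in each BRM KO library, and 88.4, 172 and 281 reads in parental cells. It was at least 176-fold lower in BRM KO than in parental cells, with 3 reads over the group as the floor (edgeR adjusted p = 0.0076). That bound is for counting error and does not cover how shared reads were divided.

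Among the 13 SMARCA2 transcripts tested, SMARCA2-227 was the single call in BRM KO against parental cells, lower there, where 3.69% of transcripts were called lower and 3 of the 13 had an unadjusted p under 0.05. In BRG1 KO against BRM KO it was the single call as well, where 5.95% of transcripts were called higher. SMARCA2-227 was higher in BRG1 KO by at least 176-fold (edgeR adjusted p = 0.0016), again a bound for counting error only. In BRG1 KO against parental cells edgeR called none of the 13, of which 2 had an unadjusted p under 0.05, where 12.4% of transcripts were called in either direction. DESeq2 called 1 of them higher and limma on read counts 1 lower.

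Short SMARCA2 transcripts, the class that holds the bromodomain end, were mostly listed at 0. Reads were assigned to 6 of the 29 (SMARCA2-205, SMARCA2-210, SMARCA2-211, SMARCA2-212, SMARCA2-231 and SMARCA2-266), and the 4 outside the 8 most abundant were named after their values were seen. SMARCA2-205 (chr9:2158458-2193042) is a coding transcript of 7 exons with 14.8% of the longest coding sequence. It had 129, 112 and 82.8 reads in BRG1 KO, 0, 0 and 33.3 reads in BRM KO, and 0, 0 and 74.4 reads in parental cells. All BRG1 KO libraries lay above all others, and its change against parental cells did not pass (edgeR adjusted p = 0.54).

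SMARCA2-210 (chr9:2159945-2191311) is coding, with 6 exons in 633 bases. It had 0, 0 and 4.11 TPM in BRG1 KO, 0 TPM in all BRM KO libraries, and 0, 9.32 and 5.26 TPM in parental cells. Those levels rest on 35.0 reads in BRG1 KO library 3 and on 89.7 and 53.0 reads in 2 parental libraries. SMARCA2-266, which begins farthest upstream of the short class at 2123850 and has 1324 31-base words of its own, had 10.3, 10.9 and 7.35 reads in BRG1 KO, 8.97, 13.7 and 7.75 reads in BRM KO, and 2.94, 1.27 and 3.12 reads in parental cells. Every knockout library of either kind was above every parental library, at levels of at most 0.210 TPM, and neither difference from parental cells passed (edgeR adjusted p = 0.13 for BRG1 KO and 0.16 for BRM KO). SMARCA2-211, SMARCA2-212 and SMARCA2-231 had at most 18.0 reads in a library.

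As a class, short SMARCA2 transcripts made 24.9%, 30.6% and 27.1% of SMARCA2 TPM in BRG1 KO, 11.3%, 3.54% and 24.8% in BRM KO, and 2.85%, 32.9% and 30.7% in parental cells. BRG1 KO and parental libraries overlapped (difference in mean share 5.39 percentage points, exact permutation p = 1.0). Their level averaged 5.55 ± 2.15 TPM in BRG1 KO, 0.713 ± 0.588 TPM in BRM KO and 6.34 ± 5.19 TPM in parental cells (SD, n = 3 each). Parental library 1 held 0.461 TPM against 10.3 and 8.28 TPM in the other 2, and the difference of BRM KO from parental cells did not exceed that spread (exact permutation p = 0.3). The mean share was 13.2% in BRM KO against 22.1% in parental cells by TPM, and that order turned by estimated reads, where it was 8.37% in BRG1 KO, 6.31% in BRM KO and 3.72% in parental cells. It turned as well with the class begun at 50% of the span, at 33.4% in BRM KO against 22.1% in parental cells.

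Full-length SMARCA2 transcripts made 23.8%, 17.3% and 19.4% of SMARCA2 TPM in BRM KO, against 65.7%, 41.4% and 42.8% in parental cells. They made 29.4%, 24.7% and 45.5% in BRG1 KO, which overlaps the parental range. By estimated reads the mean share was 64.5% in BRG1 KO, 42.7% in BRM KO and 84.99% in parental cells. In BRM KO their level was 1.19, 1.02 and 1.06 TPM, against 10.6, 13.0 and 11.5 TPM in parental cells, a ratio of 0.0934 with no overlap (exact permutation p = 0.1). In BRG1 KO it was 6.01, 2.96 and 13.3 TPM, which overlaps parental cells (exact permutation p = 0.4).

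What remained of SMARCA2 in BRM KO lay mostly outside the full-length class. Other transcripts made 64.9%, 79.2% and 55.8% of SMARCA2 TPM in BRM KO, against 31.5%, 25.7% and 26.6% in parental cells, a difference of 38.7 percentage points with no overlap (exact permutation p = 0.1). Reads in all 3 BRM KO libraries went to 3 of 66 transcripts, SMARCA2-216, SMARCA2-258 and SMARCA2-266. By mean TPM the highest in BRM KO was SMARCA2-228, a coding fragment of 7 exons in 810 bases that was singled out after its values were seen. It had 2.43, 0 and 0 TPM in BRG1 KO, 2.13, 0 and 0.501 TPM in BRM KO, and 0 TPM in all parental libraries, and its BRM KO values rest on 30.9 and 7.71 reads in 2 libraries. SMARCA2-216 is a coding fragment of the 5′ end and had 1.06, 0.141 and 4.17 TPM in BRG1 KO, 0.261, 1.14 and 0.334 TPM in BRM KO, and 1.24, 5.23 and 3.37 TPM in parental cells. SMARCA2-258, which also ends early and was singled out after its values were seen, had 28.5, 37.3 and 0 reads in BRG1 KO, 22.5, 33.4 and 55.2 reads in BRM KO, and 0, 0 and 8.35 reads in parental cells. SMARCA2-230, a processed transcript of the middle exons, had 2.44, 0 and 2.83 TPM in BRG1 KO, 0, 1.07 and 0.476 TPM in BRM KO, and 2.72, 1.43 and 2.66 TPM in parental cells.

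Some SMARCA2 transcripts that begin or end inside the gene were listed in knockout libraries and at 0 in all parental libraries, and these too were picked after their values were seen. SMARCA2-247, a processed transcript that runs from 2085975 to the 3′ end, had 97.4, 354 and 0 reads in BRG1 KO. SMARCA2-265, which begins at 2097236, had 144, 133 and 0 reads in BRG1 KO and 0, 31.7 and 0 reads in BRM KO. SMARCA2-252, which covers the first exons and ends early, had 107, 114 and 0 reads in BRM KO. Each was at 0 in at least 1 library of the group where it was found. SMARCA2-265, which alone of them had reads in enough libraries to be tested, did not pass (edgeR adjusted p = 0.15 in BRG1 KO against parental cells).

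The same values can be read along the gene by summing the TPM of all transcripts with an exon that covers the midpoint of a given exon. This reading was chosen after the values were seen. For SMARCA4 in BRG1 KO that sum was 5.47% of the parental mean at exon 2 of SMARCA4-201 and 12.2% at exon 33. At exon 2 it was 2.85, 1.36 and 4.70 TPM in BRG1 KO, 55.3, 56.3 and 56.6 TPM in BRM KO, and 60.3, 51.6 and 50.9 TPM in parental cells. At exon 33 it was 8.39, 7.32 and 7.09 TPM in BRG1 KO, 64.9, 67.6 and 66.0 TPM in BRM KO, and 65.9, 62.0 and 58.7 TPM in parental cells. Every library of each group had more at exon 33 than at exon 2. The highest BRG1 KO value along the gene, 30.8% of the parental mean, was at the 99-base exon, where the parental mean was 5.64 TPM. There 19 annotated transcripts cover the midpoint, whether or not their exon has the same ends. Among full-length transcripts the exon was held by 0% in all BRG1 KO libraries. In BRM KO the SMARCA4 sum stayed between 100.9% and 127% of the parental mean at all 35 exons.

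For SMARCA2 in BRM KO the sum was 8.43% of the parental mean at exon 1 of SMARCA2-203 and between that and 19.3% at the other 33 exons. In BRG1 KO it was 21.6% at exon 1, the lowest of the 34 exons, 60.2% at exon 2, and 109.9% at exon 33, the highest. At the exons on either side of exon 33 it was 87.1% (exon 32) and 87.6% (exon 34). At exon 1 the SMARCA2 sum was 0.461, 0.198 and 5.02 TPM in BRG1 KO, 0.891, 0.253 and 1.08 TPM in BRM KO, and 9.95, 6.78 and 9.63 TPM in parental cells. BRG1 KO libraries 1 and 2 stood with BRM KO there, and library 3 stood between them and parental cells. At exon 33 it was 14.3, 11.7 and 17.0 TPM in BRG1 KO, 1.76, 1.89 and 2.42 TPM in BRM KO, and 10.7, 13.9 and 14.5 TPM in parental cells, with BRG1 KO and parental libraries overlapping.

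**Figure D4:**
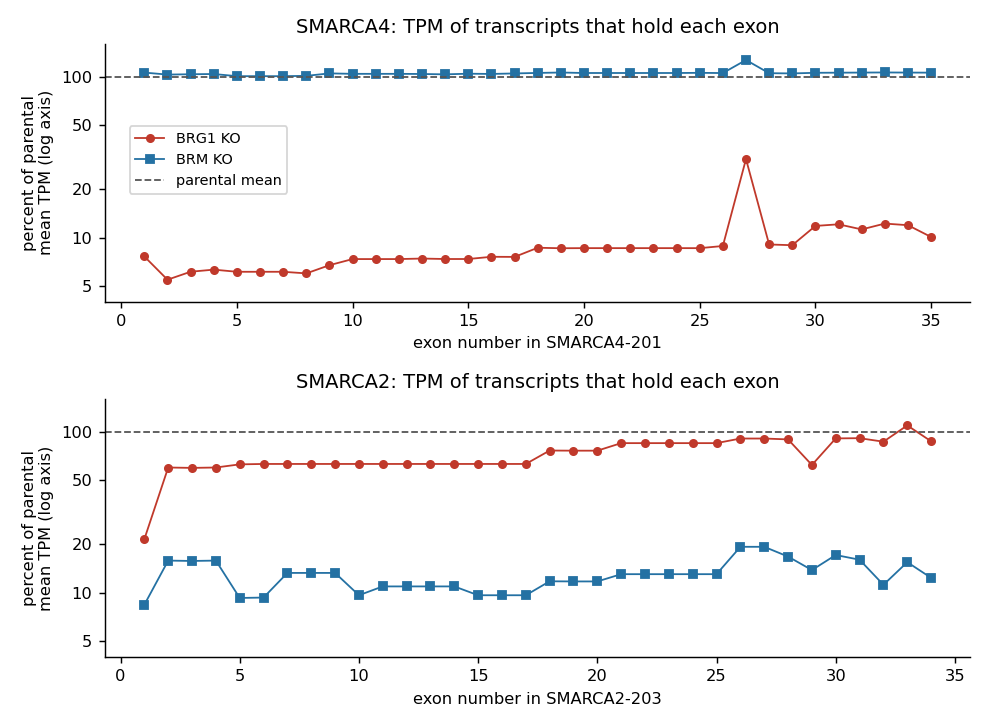
Summed TPM of all transcripts that cover the midpoint of each exon, as a percentage of the parental mean on a log axis. The horizontal axis gives the exon number of SMARCA4-201 (top) and SMARCA2-203 (bottom). Points are means of 3 libraries of a knockout: SMARCA4 in BRG1 KO lies at 5.47% at exon 2 and 12.2% at exon 33. SMARCA2 in BRG1 KO has its lowest value, 21.6%, at exon 1 and its highest, 109.9%, at exon 33. It lies at 87.1% at exon 32 and 87.6% at exon 34.

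Within full-length SMARCA4 RNA the splice choices were read as shares of its TPM. The 9 bases were kept in 35.7%, 6.91% and 9.93% of full-length TPM in BRG1 KO, 26.4%, 20.6% and 18.3% in BRM KO, and 18.4%, 19.8% and 22.1% in parental cells. The BRM KO mean exceeded the parental mean by 1.69 percentage points, within the spread (exact permutation p = 0.7), and the BRG1 KO libraries lay on both sides of the rest. The 99-base exon was held by 0% in all BRG1 KO libraries, 0%, 2.31% and 2.28% in BRM KO, and 0.381%, 4.83% and 7.13% in parental cells. The 96-base exon was held by 0%, 0% and 4.62% in BRG1 KO, 2.19%, 0% and 0.772% in BRM KO, and 3.82%, 0.588% and 3.49% in parental cells. Each of the longer exons was in at most 7.13% of full-length SMARCA4 in any library.

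The 3 bases were skipped in 0%, 6.91% and 3.37% of full-length SMARCA4 TPM in BRG1 KO, 26.0%, 30.7% and 24.6% in BRM KO, and 34.3%, 30.1% and 20.5% in parental cells. All BRG1 KO libraries lay below all others, by 24.9 percentage points on average against parental cells (exact permutation p = 0.1, the smallest possible). These BRG1 KO shares rest on 436, 250 and 636 full-length reads, against 7276 to 8141 in parental cells, and on the division between SMARCA4-241 and SMARCA4-253 on which the tools above differ.

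The 54-base exon of SMARCA2 was held by 14.4%, 19.4% and 31.4% of full-length TPM in BRG1 KO, 61.9%, 0% and 30.98% in BRM KO, and 36.5%, 39.3% and 50.9% in parental cells. All BRG1 KO libraries lay below all parental libraries, by 20.5 percentage points on average (exact permutation p = 0.1). BRM KO spanned the range of both, on 136 to 179 full-length reads a library. In BRG1 KO libraries 1 and 2, SMARCA2-227 was the only holder of the exon with reads. SMARCA2-203, the most abundant holder in parental cells, has no 31-base word of its own, so these shares rest on how shared reads were divided. The 106-base exon that SMARCA2-227 lacks was held by 85.6%, 80.6% and 85.4% in BRG1 KO, 100% in all BRM KO libraries, and 93.8%, 91.1% and 85.3% in parental cells.

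**Figure D5:**
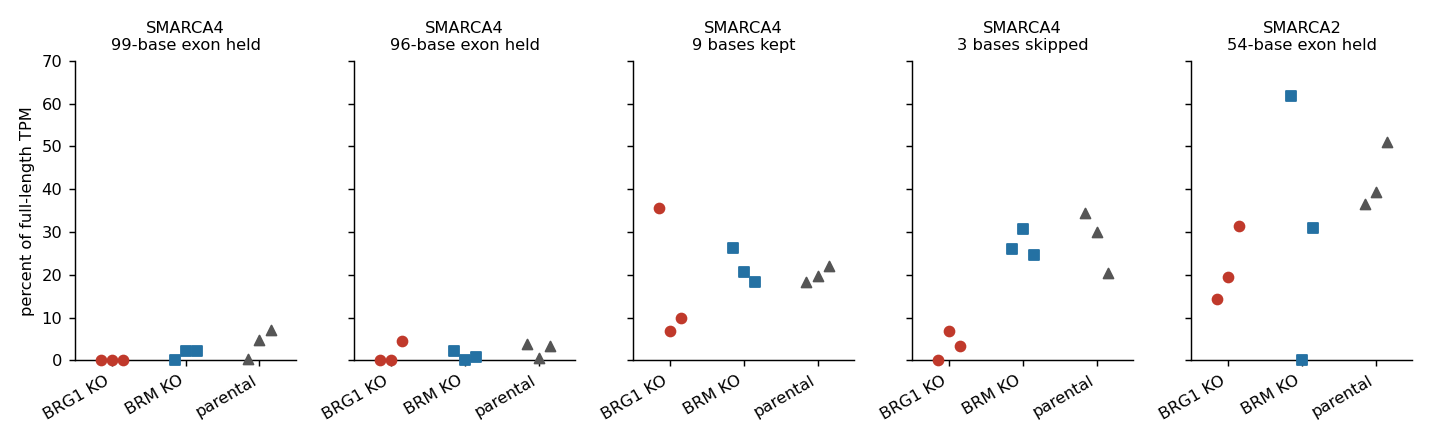
Percentage of full-length TPM that holds or skips each alternative stretch, with 1 symbol per library. The 9 bases of SMARCA4 are kept in 18.3% to 26.4% of full-length TPM in BRM KO and parental libraries, and the 3 bases are skipped in at most 6.91% in BRG1 KO and at least 20.5% elsewhere.

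The other subunits of the SWI/SNF complexes were counted beside the ATPases. Of 31 listed subunits, the ATPases included, 29 were measured. In BRG1 KO against parental cells 6 rose, 5 fell, SMARCA4 among them, and 18 did not pass, where 21.6% of all genes tested were called higher and 21.8% lower (43.4% in all), with a median log2 difference of -0.03 over the 29 and -0.01 over all genes. In BRM KO against parental cells 3 rose, 8 fell, SMARCA2 among them, and 18 did not pass, with 37.3% of all genes called and medians of -0.15 over the 29 and 0.09 over all genes. In BRG1 KO against BRM KO 11 were higher, SMARCA2 among them, 5 lower and 13 did not pass, with 21.6% of all genes called higher, 23.7% lower and medians of 0.20 over the 29 and -0.0012 over all genes. The share of subunits called was 37.9%, 37.9% and 55.2% in these comparisons. The counts of subunits that fell turned on single libraries: 11 fell in BRG1 KO without its library 3 and 3 without parental library 3, while 13 fell in BRM KO without BRG1 KO library 3, 4 without parental library 3 and 5 without BRM KO library 3. In BRG1 KO against BRM KO, 3 were lower without BRM KO library 3. SMARCD3, a BAF60-type core subunit, rose in both knockouts, with 13.7 ± 0.571 TPM in BRG1 KO, 8.46 ± 2.21 TPM in BRM KO and 0.942 ± 0.605 TPM in parental cells (SD, n = 3 each; edgeR adjusted p = 3.3e-05 and 3.5e-04). BCL7A, an accessory subunit, fell to 1.86 ± 0.436 TPM in BRG1 KO and rose to 12.8 ± 2.17 TPM in BRM KO, against 5.66 ± 0.728 TPM in parental cells (SD, n = 3 each; edgeR adjusted p = 0.0241 and 0.0111). DPF3, a PHD-finger subunit, rose to 1.17 ± 0.585 TPM in BRG1 KO and fell to 0.0038 ± 0.0066 TPM in BRM KO, against 0.182 ± 0.0496 TPM in parental cells (SD, n = 3 each; edgeR adjusted p = 6.7e-04 and 8.8e-04).

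Genes whose levels followed the ATPases most closely were found among 14391 protein-coding genes by the root-mean-square difference of log2 CPM over 9 libraries, after centring on the parental mean. For SMARCA4 they were PAK6, TNFRSF10A, MANSC1 and MARVELD2, at 0.21 to 0.23. TNFRSF10A, a receptor of the ligand TRAIL, had 3.62 ± 0.470 TPM in BRG1 KO, 42.4 ± 2.76 TPM in BRM KO and 35.2 ± 0.343 TPM in parental cells (SD, n = 3 each). For SMARCA2 they were GNB4, ANKRD33B, PARPBP and ZNF93, at 0.21 to 0.25. GNB4, a G-protein beta subunit, had 9.08 ± 3.68 TPM in BRG1 KO, 2.02 ± 0.452 TPM in BRM KO and 12.2 ± 2.501 TPM in parental cells (SD, n = 3 each).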

How the data were processed

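RNA-seq of 9 H358 libraries was analysed from transcript tables. Each table, as the authors deposited it, holds estimated counts (reads per transcript, not normalized) and TPM in Salmon's columns, per the file headers. Salmon, DESeq2 and hg38 are listed in the submitters' processing notes. Neither versions nor the transcript annotation, strand and bias settings is given in the sources used here. Of 203835 transcripts, 203746 matched a GENCODE 29 gene; the remaining 89 were left out, and their reads came to no more than 0.0193% of any library.

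Rounded estimated counts went into edgeR 4.0.16 (R 4.3.3), per gene (summed over transcripts) and per transcript, with filterByExpr, TMM scaling and 1 quasi-likelihood model of all 9 libraries with 6 residual degrees of freedom. The Benjamini-Hochberg adjustment ran over 18221 genes or 62150 transcripts, with a threshold of 0.05. The SE of a log2 fold change is approximate, the fold change over the square root of F. Shares within a gene were tested with edgeR's diffSpliceDGE and, as an alternative, limma 3.58.1 diffSplice. TPM was summed per gene, class or exon, and class and exon shares were compared with two-sided exact permutation tests (scipy 1.17.1). Bounds use 3 reads over the group and cover counting error only. The error of dividing shared reads between transcripts is not in any p-value. On simulated data the gene and transcript tests recovered the changes put in, while the diffSpliceDGE test made more false calls than its threshold allows and limma's did not. The simulated counts held no shared reads to divide, and changes were put only into features with higher counts. They do not show how the tests perform on transcripts with few or shared reads.

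Described singly were up to 8 transcripts per gene by mean TPM, from 0.5 TPM in a group, and every transcript called by edgeR. Subunits, markers and structural classes came from fixed lists and rules. Sums by annotated type and sums along the exons were chosen after the values were seen. One marker list is not reported here. The members, lists and tests were chosen with earlier results of these data known. Same-numbered replicates did not deviate together (correlations from -0.08 to 0.17), so no block was used. Alternatives were DESeq2 1.42.0, limma voom, limma on log2 TPM, other filters, scalings and class limits, only the groups compared, a replicate block, and leaving out each library.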

Additional observations from a re-analysis of the deposited data

How the results depend on the processing

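The fall of SMARCA4 in BRG1 KO (log2 -3.39 to -2.67) and of SMARCA2 in BRM KO (-2.46 to -2.18) passed under every alternative run, left-out libraries included. The smallest change of SMARCA4, -2.67, came with length-corrected counts. No log2 difference of SMARCA4 or SMARCA2, or of a transcript in a comparison where edgeR called it, changed sign. Among transcripts not called, some share differences had opposite signs in edgeR and limma, as SMARCA4-245 in BRG1 KO against parental cells (0.44 and -2.76). The order of BRM KO and parental cells in the short share of SMARCA2 turned by reads and with the class begun at 50%. That of BRG1 KO and parental cells turned without parental library 1 (27.5% against 31.8%). In the short share of SMARCA4, the order of BRG1 KO and both other groups turned with the class begun at 75%. Of the single values recomputed, 852 kept their side of the threshold or stayed within the spread, 68 moved, 9 lost their call and 1 gained it. SMARCA2 in BRG1 KO against parental cells ranged from -0.62 to -0.14 over left-out libraries and passed without BRG1 KO library 3. With the replicate number as a block, the shared numbers do not pair the samples, SMARCA4 changed by -3.29 in BRG1 KO, and the count of SMARCA4 transcripts with a changed share fell to 1; no other count of transcript calls moved.

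Counts of called SMARCA4 transcripts in BRG1 KO against parental cells were 1 higher with DESeq2 size factors, with DESeq2, with only the groups compared and with limma on log2(TPM + 0.5) or log2(TPM + 0.1), and 5 lower with limma voom and 6 lower with limma on TPM at either pseudocount. Over left-out libraries they were 0 to 1 higher and 3 to 5 lower. Against BRM KO 7 were lower with DESeq2 and with limma on TPM at either pseudocount, 6 with limma voom, and 3 to 5 over left-out libraries. In BRM KO against parental cells 1 was higher with DESeq2, and 0 to 1 higher and 0 to 1 lower over left-out libraries. For SMARCA2, BRG1 KO against parental cells had 1 higher with DESeq2, 1 lower with limma voom and on log2(TPM + 0.5), and 0 to 1 higher over left-out libraries; BRM KO had 1 higher with DESeq2 and 3 lower on log2(TPM + 0.5); BRG1 KO against BRM KO had 2 higher on log2(TPM + 0.5), and 1 to 2 higher and 0 to 1 lower over left-out libraries. Share calls in BRG1 KO against parental cells were 1 for SMARCA4 with limma voom and with at least 50 reads in 3 libraries, 1 to 3 over left-out libraries, and for SMARCA2 2 with limma voom and 0 to 2 over left-out libraries; against BRM KO SMARCA4 had 1 to 2. The call of SMARCA4-229 was lost in 5 of 9 left-out libraries.

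Subunits called lower were 3 to 11 in BRG1 KO and 4 to 13 in BRM KO against parental cells over left-out libraries (13 with only the groups compared), and 3 to 7 in BRG1 KO against BRM KO (3 without a count filter).

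By reads in place of TPM the full-length share was 52.5%, 87.0% and 90.7% of SMARCA4 and 64.5%, 42.7% and 84.99% of SMARCA2 in BRG1 KO, BRM KO and parental cells, and the short share 14.9%, 1.01% and 0.576% of SMARCA4 and 8.37%, 6.31% and 3.72% of SMARCA2 in the same order. A short class begun at 50% of the span gave 8.25% and 6.03% of SMARCA4 in BRM KO and parental cells and 39.3%, 33.4% and 22.1% of SMARCA2 in BRG1 KO, BRM KO and parental cells; begun at 75%, 0%, 0.206% and 0.104% of SMARCA4. A full-length class from 95% gave 78.2% of SMARCA4 in parental cells. The cause of these moves was not tested beyond the change of class or weight itself. Few reads limit the isoform shares of a gene in its own knockout.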
